A study of Mus musculus with 10 samples.

Results

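The rod phototransduction cascade was described here through 9 genes that carry or quench the light signal in rod photoreceptors: the transducin subunits Gnat1, Gnb1 and Gngt1, the phosphodiesterase subunits Pde6a, Pde6b and Pde6g, the channel subunits Cnga1 and Cngb1, and the arrestin gene Sag. They were chosen by name, for their role in the cascade, from a table of 57010 genes, with earlier results of these data known. All 9 were in the table and all 9 were among the 15539 genes with enough counts to be tested. Whole-retina RNA came from 10 mice, 6 to 8 weeks old when they were assigned to the vectors. In each group, 5 mice had been injected into the vitreous with green fluorescent protein (GFP) packaged in adeno-associated virus (AAV), in the AAV2 capsid (AAV2-GFP) or in the capsid named AAV206 (AAV206-GFP). Retinas were collected 14 days later. Strain, sex, dose and promoter were not given in the sources used here, and uninjected retinas were not analysed here, so every difference is between the vectors.

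In a rod, light activates the visual pigment, which activates the G protein transducin. Its alpha subunit, encoded by Gnat1, leaves the beta and gamma subunits, encoded by Gnb1 and Gngt1, and relieves the catalytic subunits of cyclic GMP phosphodiesterase, encoded by Pde6a and Pde6b, from the inhibitory subunit encoded by Pde6g. Cyclic GMP then falls and the cation channel made of the subunits encoded by Cnga1 and Cngb1 closes. Arrestin, encoded by Sag, binds the phosphorylated pigment and ends its activity. Rods are the most numerous cells of the mouse retina, so transcripts of this cascade are abundant in whole-retina RNA. Gnb1 is also expressed outside rods.

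Short motifs in the DNA before the start sites of some members are shown because rod genes are known targets of the photoreceptor transcription factors CRX and NRL. RefSeq promoter sequences of build GRCm38.p6 were matched for 6 of the 9 members, and the 250 bases before the start site were searched on both strands. No window was searched for Gnat1, Pde6a or Pde6g, and Pde6a was left out before the matching. The CRX core TAATCC (searched on the other strand as GGATTA) was found in 4 of the 6, against 6.25% of all 32851 windows of that length. The NRL core TGCTGA (searched on the other strand as TCAGCA) was found in 2 of the 6, against 16.1% of all windows. A match is a description of the letters and not a shown binding site. The matches are printed with up to 12 bases on each side, in the direction of the gene, with the motif in capitals. They are Gngt1 (chr6:3993952-3993981, plus strand), Sag (chr1:87803581-87803610, plus strand), Cnga1 (chr5:72642963-72642992, minus strand) and Cngb1 (chr8:95306626-95306655 and chr8:95306593-95306622, minus strand) for CRX. For NRL they are Sag (chr1:87803481-87803510) and Pde6b (chr5:108388353-108388372), both on the plus strand.
Gngt1, CRX: tcatattaggggGGATTAtgaagaagcttt
Sag, CRX: taaagaggtttaGGATTAaaaaaaaaaaaa
Cnga1, CRX: agtgtctcatttTAATCCtaatgataaact
Cngb1, CRX, farther from the start: ttctgcacatgcTAATCCtttgcacccggc
Cngb1, CRX, nearer to the start: tctagtgccaatTAATCCtggctgggtctg
Sag, NRL: acaccctaatgcTGCTGAgcttaatcaggc
Pde6b, NRL: taagaaagacttTGCTGAca
The CRX core lay 44 bases before the RefSeq start in Gngt1, 87 in Sag, 228 in Cnga1, and 58 and 25 in Cngb1. Neither motif was found in the Gnb1 window. The Gngt1 match lies inside the first exon of the longer GENCODE transcript, whose start is farther upstream, and the Cnga1 match inside an exon of a retained-intron transcript.

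Libraries held 10989843 to 12752604 estimated counts each, and member genes held 2540 (Gngt1) to 138095 (Gnat1) in a library. Together the 9 genes took 2.69% to 2.82% of all counts with AAV2-GFP and 2.52% to 2.83% with AAV206-GFP. Some libraries stood apart. AAV2-GFP replicates 1 and 4 were high for 8 interferon response genes, with summed levels of 441 and 595 CPM (counts per 1000000 counts of the library, its size adjusted with edgeR's TMM factors) against 81.6 to 146.5 in the other 8 libraries. AAV2-GFP replicates 3 and 4 had high levels of short transcripts in general and AAV206-GFP replicate 4 had low ones, as described further on. The design gives 5 mice per group and 5 libraries per group, so each library was taken as 1 mouse, and p-values measure the spread between these libraries.

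Among the members, Gngt1 and Pde6g, which encode small subunits, had an adjusted p under 0.05 with edgeR, both lower with AAV206-GFP. The other 7 did not pass, so no member passed as higher. The Pde6g call was lost in some alternatives, as described further on. Not passing does not show that a level was unchanged. Intervals of the log2 fold change, nominally 95%, took a normal spread around the estimate, which is narrower than the edgeR test allows. They were 0.018 to 0.333 for Pde6a, 0.008 to 0.234 for Cnga1 and -0.248 to -0.053 for Gnat1. For Cnga1 the edgeR p before adjustment was 0.0531, so an interval from that test would hold 0. In the other members that did not pass, the intervals held 0. They were -0.027 to 0.171 for Gnb1, -0.148 to 0.047 for Pde6b, -0.262 to 0.014 for Cngb1 and -0.077 to 0.12 for Sag. Over all tested genes 11.2% passed, 5.95% as higher and 5.30% as lower. By point estimate 4 members were higher and 5 lower, with log2 fold changes (AAV206-GFP over AAV2-GFP) from -0.47 to 0.18. Their median was -0.05, against -0.0095 over all tested genes. In 1 member, Gngt1, all AAV206-GFP mice lay on the same side of all AAV2-GFP mice, against 9.78% of all tested genes. In whole-retina RNA, fewer cells of a type and less RNA per cell cannot be told apart.

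**Figure D1:**
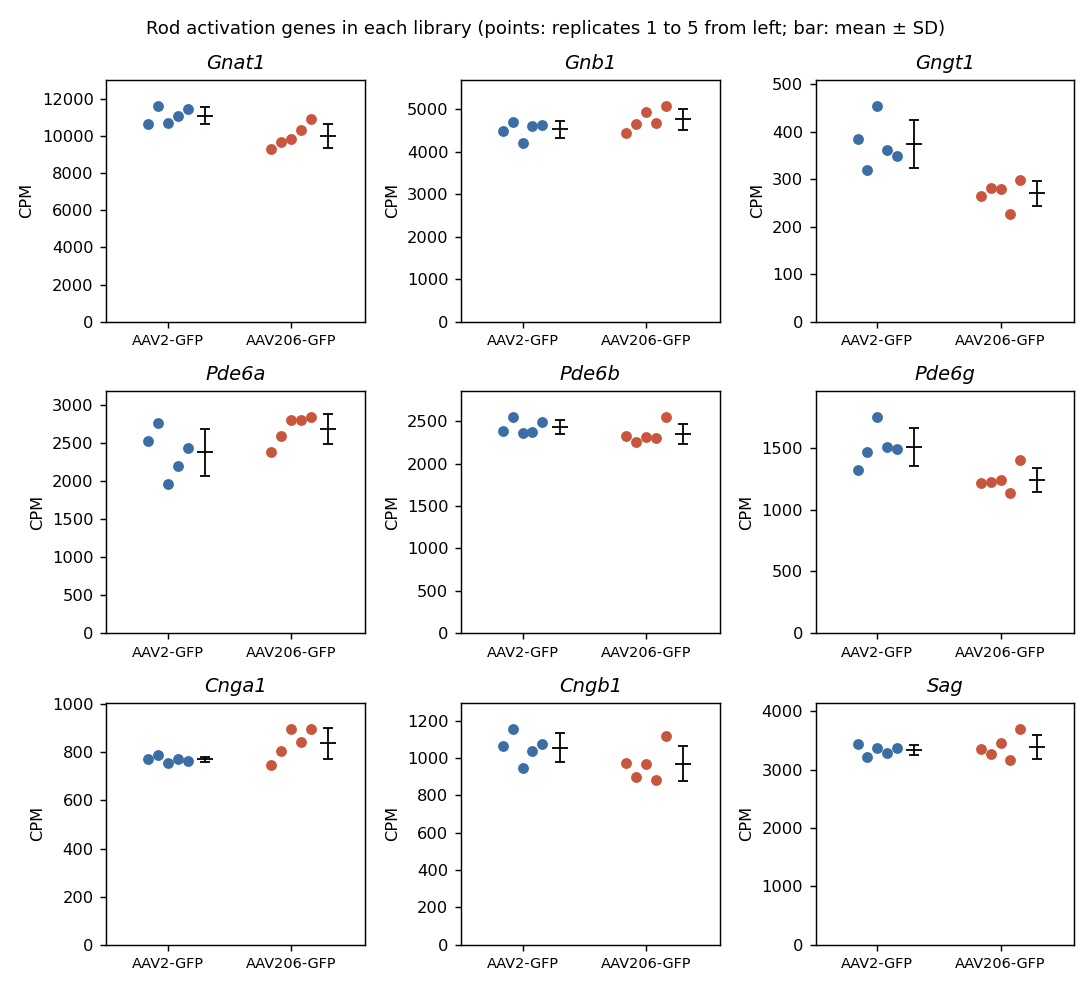
CPM of each member gene in each of the 10 libraries (points, replicates 1 to 5 from left to right within a group), with mean ± SD beside them. Gngt1 is the panel in which the groups separate, at 319 to 455 CPM with AAV2-GFP and 228 to 298 with AAV206-GFP, and the Sag groups overlap.

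Transducin. Gngt1 (ENSMUSG00000029663, GRCm38 chr6:3993792-3997436, plus strand) encodes the rod gamma subunit, which anchors the beta-gamma pair to the disc membrane. In the AAV2-GFP mice its level was 386, 319, 455, 362 and 349 CPM in the order of the replicate numbers. In the AAV206-GFP mice it was 265, 282, 280 (279.5 before rounding), 228 and 298 CPM. Every AAV206-GFP mouse was below every AAV2-GFP mouse, with AAV2-GFP replicate 3 the highest and AAV206-GFP replicate 4 the lowest. The means were 374 ± 51.4 and 271 ± 26.5 CPM (SD, n = 5). The level fell by 27.7%, and the log2 fold change was -0.47 ± 0.09 (SE; edgeR adjusted p = 0.00387).

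Gnat1 (ENSMUSG00000034837, GRCm38 chr9:107674474-107679712, minus strand), the alpha subunit that switches on the phosphodiesterase, was the most abundant member. Its level was 10626, 11628, 10680, 11087 and 11463 CPM in the AAV2-GFP mice. In the AAV206-GFP mice it was 9278, 9675, 9830.1, 10293 and 10919 CPM. AAV206-GFP replicate 5 lay within the AAV2-GFP range and the other 4 lay below it. The log2 fold change was -0.15 ± 0.05 (SE), which did not pass (edgeR adjusted p = 0.0612). The value passed as lower with library size scaling (adjusted p = 0.0333), with DESeq2 (adjusted p = 0.0398) and without AAV206-GFP replicate 5 (edgeR adjusted p = 0.0234).

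Gnb1 (ENSMUSG00000029064, GRCm38 chr4:155491361-155559269, plus strand), the beta subunit, had levels of 4489, 4712, 4203, 4617 and 4624 CPM with AAV2-GFP. With AAV206-GFP they were 4442, 4665, 4928, 4682 and 5086 CPM. The groups overlapped, with 2 AAV206-GFP mice above all AAV2-GFP mice. The log2 fold change was 0.07 ± 0.05 (SE; edgeR adjusted p = 0.369).

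Phosphodiesterase. Pde6g (ENSMUSG00000025386, GRCm38 chr11:120447605-120453500, minus strand) encodes the small subunit that holds the enzyme inactive in the dark. Its level was 1320 (1319.7), 1466, 1748, 1510.0 and 1488 CPM in the AAV2-GFP mice. In the AAV206-GFP mice it was 1214, 1225, 1242, 1136 and 1402 CPM. AAV206-GFP replicate 5 lay within their range and the other 4 lay below all AAV2-GFP mice. The means were 1506 ± 154 and 1244 ± 97.3 CPM (SD, n = 5), and the log2 fold change was -0.28 ± 0.07 (SE; edgeR adjusted p = 0.0244). This call was lost when AAV2-GFP replicate 4 or AAV206-GFP replicate 2, 3 or 4 was left out, with edgeR adjusted p-values of 0.0562, 0.0632, 0.0535 and 0.0671. The log2 fold changes in those 4 fits, which hold fewer mice, were -0.28, -0.27, -0.28 and -0.25. It was also lost when the trend of each library on transcript length was removed, with a log2 fold change of -0.14 (edgeR adjusted p = 0.0908). With all exons of a gene merged as its length, a correction added after seeing the data, it passed at -0.19 (edgeR adjusted p = 0.0284).

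Pde6a (ENSMUSG00000024575, GRCm38 chr18:61220315-61289924, plus strand) and Pde6b (ENSMUSG00000029491, GRCm38 chr5:108388391-108432397, plus strand) encode the alpha and beta catalytic subunits. Pde6a was at 2531, 2772, 1970.2, 2198 and 2437 CPM with AAV2-GFP. With AAV206-GFP it was at 2387, 2602, 2810 (2809.7), 2804 and 2846 CPM, so 3 mice lay above every AAV2-GFP mouse. Its log2 fold change, 0.18 ± 0.08 (SE), did not pass (edgeR adjusted p = 0.166).

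Pde6b was at 2388, 2544, 2357, 2375 and 2484 CPM with AAV2-GFP. With AAV206-GFP it was at 2320.5, 2259, 2308, 2298 and 2546 CPM. Although 4 AAV206-GFP mice lay below all AAV2-GFP mice, the fifth was the highest of all 10. The log2 fold change was -0.05 ± 0.05 (SE; edgeR adjusted p = 0.539).

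Channel. Cnga1 (ENSMUSG00000067220, GRCm38 chr5:72603696-72644275, minus strand) encodes the subunit that can form a channel on its own. Its level was 772, 787, 756, 774 and 764 CPM with AAV2-GFP, the narrowest spread of any member (coefficient of variation 1.5%). With AAV206-GFP it was 746, 807, 898, 843 and 895 CPM. Of the AAV206-GFP mice, 4 lay above and 1 lay below all AAV2-GFP mice. The log2 fold change was 0.12 ± 0.06 (SE; edgeR adjusted p = 0.185).

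Cngb1 (ENSMUSG00000031789, GRCm38 chr8:95239045-95306585, minus strand) encodes the modulatory subunit, and its locus also yields soluble glutamic acid-rich proteins. Its level was 1065, 1157, 945, 1041 and 1078 CPM with AAV2-GFP. With AAV206-GFP it was 972, 901, 969, 885 and 1121 CPM. The groups overlapped widely, and the log2 fold change was -0.12 ± 0.07 (SE; edgeR adjusted p = 0.263).

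Arrestin. Sag (ENSMUSG00000056055, GRCm38 chr1:87803680-87845158, plus strand) had the smallest difference of the 9. Its level was 3430 (3429.6), 3223, 3371, 3281 and 3376 CPM with AAV2-GFP. With AAV206-GFP it was 3349, 3274, 3452, 3159 and 3698 CPM. The log2 fold change was 0.02 ± 0.05 (SE; edgeR adjusted p = 0.816). Its sign turned without AAV206-GFP replicate 5 and in 1 of the length corrections.

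**Figure D2:**
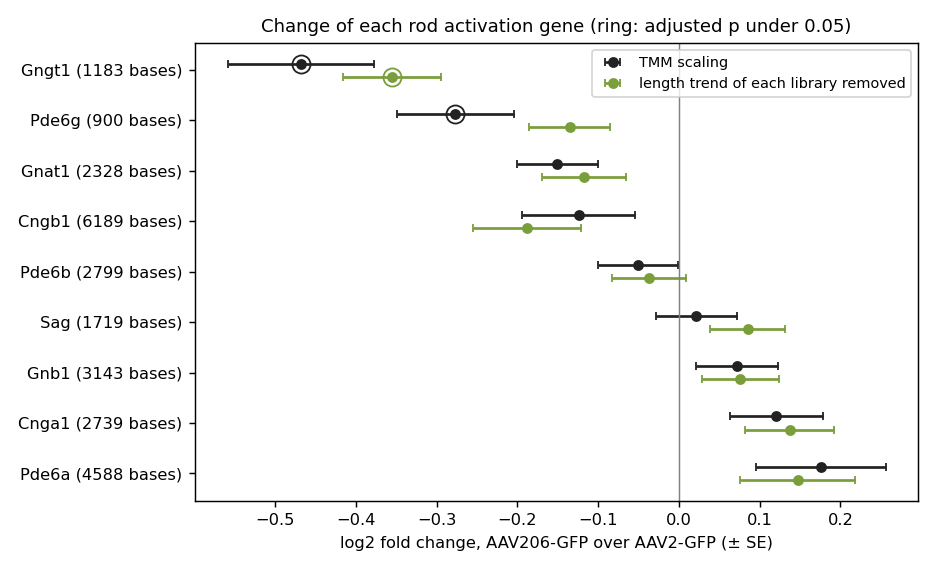
Log2 fold change of each member (± SE), as fitted with TMM scaling (black) and after the trend of each library on transcript length was removed (green), with rings where the adjusted p was under 0.05. Gngt1 is ringed in both fits, at -0.47 and -0.36, and Pde6g in the first fit, at -0.28, but not in the second, at -0.14.

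Levels of different genes can be compared only per length, so CPM was divided by the length of the principal transcript in kilobases. On that scale, Gnat1 led in both groups, at 4767 ± 194 CPM per kilobase in the AAV2-GFP mice and 4295 ± 270.4 in the AAV206-GFP mice (SD, n = 5 in each). Sag followed at 1941 ± 48.2 and 1970 ± 119 (SD, n = 5). Pde6g and Gnb1 came next, and their order differed between the groups while their ranges overlapped within each. Pde6b at 868 ± 28.9 and 838 ± 40.7 (SD, n = 5), then Pde6a at 519 ± 67.3 and 586 ± 42.3 (SD, n = 5), were separate from their neighbours in both groups.

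The lowest places on the per-length scale were held by Gngt1, Cnga1 and Cngb1. With AAV2-GFP, Gngt1 stood at 316 ± 43.4 CPM per kilobase (SD, n = 5) and overlapped Cnga1 at 281 ± 4.21 (SD, n = 5). With AAV206-GFP, Gngt1 stood at 229 ± 22.4 and was below every Cnga1 value, which averaged 306 ± 23.3 (SD, n = 5). Cngb1 was lowest on this scale, at 171 ± 12.4 and 157 ± 15.1 (SD, n = 5). These orders depend on the length chosen, since members have 2 to 10 annotated transcripts each. Per kilobase of all exons merged, Gnat1 still led, but Sag came after Gnb1, Pde6g, Pde6a and Pde6b, at 375 ± 9.31 and 380.3 ± 22.9 (SD, n = 5). On that scale Gngt1 was lowest, at 106.5 ± 14.6 and 77.0 ± 7.54 (SD, n = 5), and with AAV2-GFP it overlapped Cngb1 at 113 ± 8.18 (SD, n = 5).

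Ratios of subunits within a library do not depend on how libraries are scaled, and they were compared for 7 pairs. All 7 log2 ratios of counts differed between the vectors after adjustment over the 7 pairs (exact permutation test, two-sided, all relabellings of the 10 mice, smallest possible p 0.00794). The groups did not overlap in 4 of them. Gnb1 over Gnat1, Pde6b over Pde6a and Cngb1 over Cnga1 differed, and none of those genes passed the edgeR test on its own. These outcomes cannot be set side by side, since ratios were adjusted over the 7 pairs and genes over all tested genes. Before adjustment, Gnat1 had p = 0.00813 and Gnb1 p = 0.173 (edgeR), and their ratio had p = 0.00794 (exact permutation test). The pairs share members, and in transducin and the phosphodiesterase each log2 ratio follows from the others. They were chosen with results on Gngt1 known. Ratios of other gene pairs were not tested, so no share over all genes stands beside these counts of ratios.

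Within transducin, Gnb1 counts per 100 Gnat1 counts, not adjusted for length, were 42.2, 40.5, 39.4, 41.6 and 40.3 in the AAV2-GFP mice. In the AAV206-GFP mice they were 47.9, 48.2, 50.1, 45.5 and 46.6. All AAV206-GFP mice were higher. The log2 ratio was -1.29 ± 0.04 and -1.07 ± 0.05 (SD, n = 5), a difference of 0.22 (exact permutation test, p = 0.00794, adjusted 0.0139). Gngt1 counts per 100 Gnb1 counts were 8.60, 6.77, 10.8, 7.84 and 7.55 with AAV2-GFP and 5.97, 6.06, 5.67, 4.87 and 5.85 with AAV206-GFP. All AAV206-GFP mice were lower, with a difference in log2 ratio of -0.54 (exact permutation test, p = 0.00794, adjusted 0.0139). Gngt1 over Gnat1 differed by -0.31 with overlap (exact permutation test, p = 0.0317, adjusted 0.0317).

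Within the phosphodiesterase, Pde6g counts per 100 Pde6a counts were 52.1, 52.9, 88.7, 68.7 and 61.1 in the AAV2-GFP mice. In the AAV206-GFP mice they were 50.9, 47.1, 44.2, 40.5 and 49.3. The highest AAV206-GFP mouse was just below the lowest AAV2-GFP mouse, and AAV2-GFP replicate 3 was far above the rest. The difference in log2 ratio was -0.46, and it was -0.22 for Pde6g over Pde6b (exact permutation tests, p = 0.00794 and adjusted 0.0139 for both). The catalytic pair itself, Pde6b over Pde6a, differed by -0.23 with overlap (exact permutation test, p = 0.0317, adjusted 0.0317). Within the channel, Cngb1 over Cnga1 had a log2 ratio of 0.45 ± 0.09 and 0.21 ± 0.14 (SD, n = 5), a difference of -0.24 with overlap (exact permutation test, p = 0.0238, adjusted 0.0317).

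With 1 mouse left out, the exact tests have 126 relabellings, and the 3 ratios with overlap then missed the threshold in some cases with differences of like or smaller size. Gngt1 over Gnat1 missed it without AAV2-GFP replicate 1 or 3 (differences -0.28 and -0.23) and without AAV206-GFP replicate 2, 3, 4 or 5 (-0.34, -0.33, -0.24 and -0.32), with adjusted p from 0.0556 to 0.0873 (exact permutation tests). Pde6b over Pde6a missed it without AAV2-GFP replicate 3 (-0.18) and without AAV206-GFP replicate 2, 3, 4 or 5 (-0.23, -0.21, -0.21 and -0.24), with adjusted p from 0.0556 to 0.0648 (exact permutation tests). Cngb1 over Cnga1 missed it without AAV2-GFP replicate 1, at -0.24 (exact permutation test, adjusted p = 0.0556). Without AAV2-GFP replicate 3 and AAV206-GFP replicate 4, left out together after their values were seen, the differences in Gngt1 over Gnat1 and in Pde6b over Pde6a shrank to -0.15 and -0.16 (exact permutation tests, adjusted p = 0.114 for both). Under the same omission Pde6g over Pde6a was -0.29 and Pde6g over Pde6b -0.13 (exact permutation tests, adjusted p = 0.0400 for both).

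**Figure D3:**
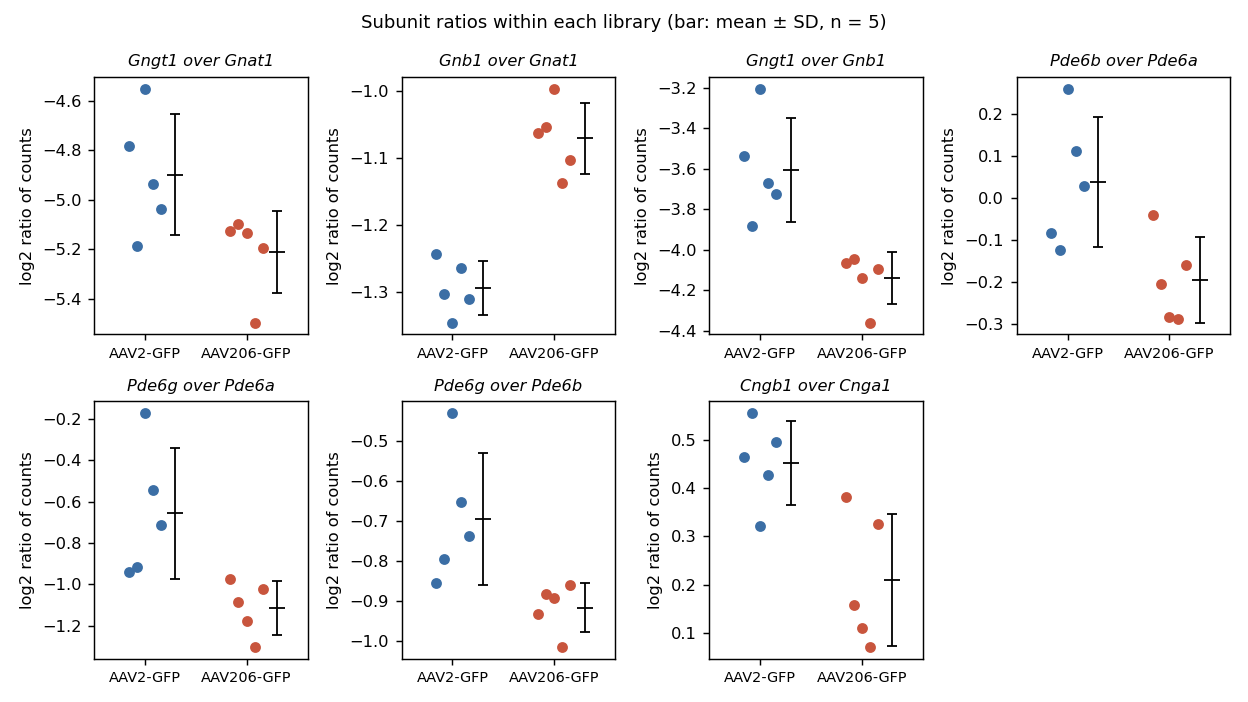
Log2 ratio of the counts of 2 subunits of the same complex in each library (points, replicates 1 to 5 from left to right), with mean ± SD (n = 5). The groups separate fully for Gnb1 over Gnat1, Gngt1 over Gnb1, Pde6g over Pde6a and Pde6g over Pde6b, and AAV2-GFP replicate 3 is the highest point in the last 3 of these.

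Transcript length moved with these differences. The members' principal transcripts run from 900 bases for Pde6g and 1183 for Gngt1, through 1719 for Sag, 2328 for Gnat1, 2739 for Cnga1, 2799 for Pde6b and 3143 for Gnb1, to 4588 for Pde6a and 6189 for Cngb1. The 2 members that passed as lower have the 2 shortest principal transcripts. With all exons merged, Gngt1 (3515 bases) was longer than Gnat1 (3029 bases), and Pde6g (2317 bases) was still the shortest. Over 15287 tested genes with a known length, log2 fold change and length had a Spearman correlation of 0.237, a description across genes that are not independent. The median log2 fold change was -0.17 for 985 transcripts under 1000 bases, -0.11 for 1400 transcripts from 1000 to under 1500 bases and 0.10 for 1862 transcripts of 6000 bases and over. Among transcripts from 1000 to under 1500 bases 7.79% passed as lower and 2.57% as higher, and among those of 6000 bases and over 1.40% passed as lower and 11% as higher.

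**Figure D4:**
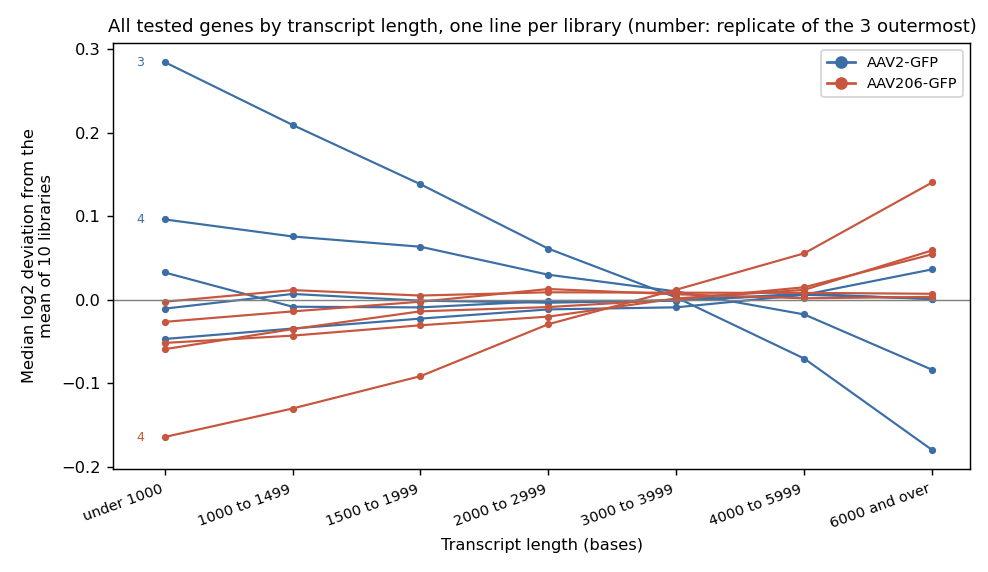
Median log2 deviation of all tested genes from their mean over the 10 libraries, by transcript length, with 1 line per library. AAV2-GFP replicate 3 is highest for transcripts under 1000 bases, at 0.28, and AAV206-GFP replicate 4 lowest, at -0.16, while the other 8 libraries lie between -0.06 and 0.10.

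The fitted trend was farthest from 0 in a few libraries. Of these, AAV2-GFP replicate 3 held the highest and AAV206-GFP replicate 4 the lowest level of both Gngt1 and Pde6g. At the length of Gngt1 the fitted trend was 0.26 in AAV2-GFP replicate 3, 0.10 in AAV2-GFP replicate 4 and -0.14 in AAV206-GFP replicate 4, and between -0.04 and 0.01 in the other 7. With the trend of each library removed, Gngt1 still fell, with a log2 fold change of -0.36 ± 0.06 (SE; edgeR adjusted p = 0.00146). Without both AAV2-GFP replicate 3 and AAV206-GFP replicate 4 it was -0.33 (edgeR adjusted p = 0.00865), and for Pde6g it was -0.19 (edgeR adjusted p = 0.103). Cngb1, the longest member, did not follow the trend: its log2 fold change was -0.19 once the trend was removed (edgeR adjusted p = 0.0783).

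After the length trend was removed, the 7 subunit ratios kept their directions and stayed under the threshold. The difference in Pde6g over Pde6b shrank from -0.22 to -0.10 (exact permutation test, adjusted p = 0.0463) and that in Pde6g over Pde6a from -0.46 to -0.29 (adjusted p = 0.0278). For Cngb1 over Cnga1 it grew from -0.24 to -0.33 (exact permutation test, adjusted p = 0.0185). What made libraries differ in short and long transcripts was not tested.

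Counts of 8 members were whole in every library, as where no read is divided between genes. Gnat1 carried decimals in all 10. In the deposited table, 1 gene, ENSMUSG00000121142, had decimals that added with those of Gnat1 to a whole number in every library, within 0.015, among 1780 genes with decimals throughout. It held 294 to 573 counts, 0.258% to 0.519% of the Gnat1 count, and it has no symbol in the GENCODE release M21 annotation used here. With its counts added to Gnat1, the log2 fold change of Gnat1 was -0.15 (edgeR adjusted p = 0.0619). How many Gnat1 reads were divided cannot be read from the table. In GENCODE M21 no other gene shares exon bases with any of the 9 members, and genes absent from that release could not be checked.

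Around the cascade, genes of shut-off and calcium feedback moved both ways. Of 11 listed genes all were tested, 3 passed as higher, 1 passed as lower and 7 did not pass, with a median log2 fold change of 0.06. Rgs9, whose product speeds the return of transducin to its inactive state, had a mean of 477 ± 170 CPM with AAV2-GFP and rose to 822 ± 95.4 (SD, n = 5), and its log2 fold change was 0.79 ± 0.18 (SE; edgeR adjusted p = 0.0133). Gnb5, the beta subunit that partners it, rose from 615 ± 39.8 to 862 ± 38.3 CPM (SD, n = 5; log2 fold change 0.49, edgeR adjusted p = 7.8e-05), with decimals in 9 libraries. In both genes the groups did not overlap. For Rgs9 the gap was narrow, with a highest AAV2-GFP value of 685 CPM and a lowest AAV206-GFP value of 689 CPM.

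Pdc encodes phosducin, which binds the transducin beta-gamma pair, and it rose by 0.25 on the log2 scale (edgeR adjusted p = 0.0217). Its transcript has 1246 bases, so it went against the trend of short transcripts, and its log2 fold change was 0.36 once that trend was removed. Rcvrn, the calcium sensor recoverin, fell by 0.25 on the log2 scale (edgeR adjusted p = 0.00643). That call was lost with the trend removed (log2 fold change -0.13, edgeR adjusted p = 0.132).

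Among 5 genes for moving or placing cascade proteins, 1 passed as higher and 2 as lower. Pde6d, a carrier of lipid-modified proteins that include the phosphodiesterase, had a log2 fold change of -0.32 (edgeR adjusted p = 0.0414), and the call was lost with the length trend removed (adjusted p = 0.0606). Rd3, a regulator of retinal guanylate cyclase, had a log2 fold change of -0.40 (edgeR adjusted p = 0.00611) with decimals in 10 libraries. Fam161a, a protein of the photoreceptor cilium, had a log2 fold change of 0.38 (edgeR adjusted p = 0.00514).

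The cone counterparts of the members offer a parallel set. Of 10 genes, 2 passed as higher, 1 as lower and 7 did not pass. Gngt2, the cone transducin gamma subunit, had a mean of 22.03 ± 2.67 CPM with AAV2-GFP and fell to 15.2 ± 2.18 (SD, n = 5), and its log2 fold change was -0.53 ± 0.12 (SE; edgeR adjusted p = 0.00902), without overlap of the groups. It thus fell as Gngt1 did, and it passed also with the length trend removed (log2 fold change -0.46, edgeR adjusted p = 0.00788). Gnat2, the cone alpha subunit, rose from 152 ± 5.39 to 179 ± 8.37 CPM (SD, n = 5; log2 fold change 0.24, edgeR adjusted p = 0.0123), and the cone opsin Opn1mw rose by 0.47 on the log2 scale (edgeR adjusted p = 0.000881). The cone phosphodiesterase genes Pde6c and Pde6h did not pass (log2 fold changes 0.14 and 0.09), nor did the channel genes Cnga3 and Cngb3, with -0.08 and -0.20.

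Of 10 rod identity and outer segment genes, 3 passed, all as higher, with a median log2 fold change over the list of 0.04. Reep6, a rod membrane-trafficking protein, rose by 0.32 on the log2 scale (edgeR adjusted p = 0.00197). Nr2e3, a rod transcription factor, rose by 0.25 (edgeR adjusted p = 0.0446). The rod regulators Nrl and Crx did not pass (log2 fold changes -0.12 and 0.07).

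**Figure D5:**
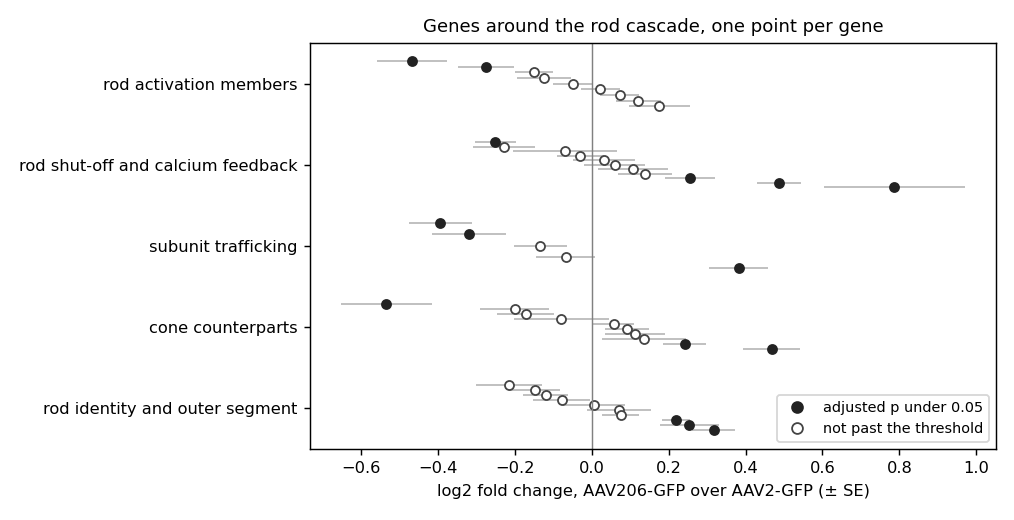
Log2 fold change (± SE) of each tested gene in the members and in 4 lists around the cascade, with filled points where the adjusted p was under 0.05. Filled points lie on both sides of 0 in the shut-off, trafficking and cone lists, on the lower side for the 2 members that passed, and on the higher side for 3 rod identity genes.

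Among 10271 other named genes whose mean reached 10 CPM, the levels most like Gngt1 over the 10 libraries were those of Txndc15 (Pearson r of log2(CPM + 1) 0.986) and Cd63 (0.984). For Pde6g they were Ppp1ca (0.981) and Gapdh (0.977), both with decimals in 10 libraries. The libraries fall into 2 groups that share the difference between vectors, but within groups the correlations were 0.954, 0.947, 0.959 and 0.944. All 4 genes have transcripts of 1109 to 1527 bases and passed as lower, with log2 fold changes of -0.30, -0.47, -0.25 and -0.22. These correlations are descriptions over shared libraries, picked as the highest of many, and they were not computed with the length trend removed.

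Some markers of other cells passed the threshold, against 11.2% of all tested genes. Erythrocyte genes were higher with AAV206-GFP in 4 of 5, with summed levels of 67.8 to 85.8 CPM in the AAV2-GFP mice and 101 to 319 in the AAV206-GFP mice. Both tested lens genes of 6 listed were lower, with sums of 8.35 to 24.6 and 0.182 to 8.83 CPM, and 1 listed lens gene was at 0 in every library. Interferon response genes passed as lower in 6 of 8 tested, and none of the 8 separated the groups. Their sums were 441 and 595 CPM in AAV2-GFP replicates 1 and 4. In the other AAV2-GFP mice they were 81.6 to 146.5 CPM, and 84.6 to 107 with AAV206-GFP. No bipolar, amacrine, horizontal, Müller glia or gliosis marker passed (0 of 30 tested). Single markers passed as lower, 1 of 7 for ganglion cells, 1 of 5 tested for the retinal pigment epithelium (RPE) and 1 of 6 tested for microglia and macrophages. A single call in so few genes is near the share over all tested genes. Of 6 endothelial markers 1 passed as higher and 2 as lower, and none of 6 lymphocyte markers had enough counts for the test. The part of these cells in the change of the members was not tested. Without AAV2-GFP replicates 1 and 4, the mice with high interferon genes, Gngt1 had a log2 fold change of -0.48 (edgeR adjusted p = 0.0146) and Pde6g of -0.34 (edgeR adjusted p = 0.0217).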

How the data were processed

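The deposited table held estimated counts per gene for 10 libraries, not scaled between libraries. The submitters' processing notes name STAR 2.7.10b, RSEM 1.3.1 and build mm10. The annotation and strand setting are not given in the sources used here. Per the labels' protocols the libraries were made with a NEBNext Ultra RNA kit and read as pairs of 150 bases. The authors' estimated counts were rounded to whole numbers and fitted with edgeR 4.0.16 in R 4.3.3 (filterByExpr with a minimum count of 10, TMM, quasi-likelihood F test, all 10 libraries, Benjamini-Hochberg over 15539 genes, threshold 0.05). Standard errors were taken as |log2 fold change| over the square root of F. Symbols, coordinates and lengths came from GENCODE M21 (GRCm38), which held 91.3% of all IDs and 98.4% of tested ones. A gene's length is that of its longest APPRIS principal coding transcript, or else its longest coding or longest transcript. The length correction removed a loess curve of each library's log2 deviations on log2 length.

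The members and lists were chosen with earlier results of these data known. Named genes are the 9 members, up to 4 genes with the smallest p past the threshold in each list around the cascade, and the 2 genes most like each member that passed. The counts include 1 gene that is left unnamed and not reported here. Other cell types are given as counts only. Cone channel and phosphodiesterase genes, Nrl and Crx were named outside the rule. Alternatives used DESeq2 1.42.0, limma 3.58.1, other scaling, filters and rounding, the replicate number as a block, and fewer libraries. Within groups, pairs of libraries differed by 3.74 to 23.1 in chi-square per degree of freedom, so none was a duplicate. In simulated counts for 15335 tested genes, the test recovered 71.4% of the genes changed by 1.5-fold and 16.3% of those by 1.25-fold, with 11 false among 143 calls. The simulated libraries held no length trend, and the changed genes were drawn at random over all levels. These rates therefore need not hold for the real libraries or for the members.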

Additional observations from a re-analysis of the deposited data

Results flagged for a closer look

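In 2 of 32 results examined per group, 1 mouse lay far from the other 4. The measure was Dixon's ratio, the gap to the closest mouse over the whole range, with a critical value of 0.71. Chance would give about 1.6. Pde6b in AAV206-GFP replicate 5 was at 2546 CPM, with the other 4 AAV206-GFP mice between 2259 and 2320.5 (ratio 0.785). The log2 ratio of Gngt1 over Gnat1 in AAV206-GFP replicate 4 was -5.50, with the other 4 between -5.20 and -5.10 (ratio 0.753). That library was also the lowest for short transcripts in general. The part of that trend in its ratio was not tested.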

How the results depend on the processing

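Gngt1 stayed past the threshold as lower in all 25 alternatives, with log2 fold changes of -0.52 to -0.33, and Pde6g in 19. The members past the threshold were 2, 3 with library size scaling or with DESeq2, where Gnat1 joined, 2 with the length trend on merged exons, and 1 with that on principal transcripts or without both AAV2-GFP replicate 3 and AAV206-GFP replicate 4. When each library was left out in turn they were 1 to 3. Over all genes the 1747 calls became 1085 with the replicate block, 985 without AAV2-GFP replicates 1 and 4, 858 without AAV2-GFP replicate 3 and AAV206-GFP replicate 4, and 991 to 1912 when each library was left out. Both members that passed did so with the block (edgeR adjusted p = 0.00938 for Gngt1 and 0.0384 for Pde6g), and it changed no call of a member. Deviations of same-numbered mice correlated at -0.052 to 0.040 over all tested genes, so they did not deviate together. Whether mice of the same number were handled together cannot be read from these values. The cause of these changes was not tested beyond fewer libraries in the fit. Sag turned to -0.0435 with merged exons as length and to -0.0107 without AAV206-GFP replicate 5, and was 0.0489 without AAV2-GFP replicate 3 and AAV206-GFP replicate 4. Without AAV2-GFP replicates 1 and 4, with 56 relabellings, Gngt1 over Gnat1 was -0.29 (exact permutation test, adjusted p = 0.0893), Pde6b over Pde6a -0.25 (adjusted p = 0.0750) and Cngb1 over Cnga1 -0.25 (adjusted p = 0.0833). Without AAV2-GFP replicate 3 and AAV206-GFP replicate 4 the first 2 were -0.15 and -0.16. With each library left out, Gngt1 over Gnat1 ranged from -0.38 to -0.23 (past the threshold in 4 of 10), Pde6b over Pde6a from -0.27 to -0.18 (5 of 10) and Cngb1 over Cnga1 from -0.29 to -0.21 (9 of 10). The other 4 ratios passed in all 15 alternatives. No paired test of the ratios was run, since same-numbered mice did not deviate together and an exact sign-flip test of 5 pairs cannot reach the threshold.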
